A study of Homo sapiens with 9 samples.

Results

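The genes described here build fatty acids from citrate, release the finished chain, lengthen it and place double bonds in it. The set lists 10 genes, namely ACLY, ACACA, FASN, OLAH, SCD, FADS1, FADS2, ELOVL1, ELOVL5 and ELOVL6, and 9 of them were matched by Ensembl identifier to a row of the 51796 genes in the count table. ACACA had no matched row and was not analysed here. OLAH was chosen on its values, because its counts were nearly lost in both knockdowns, so its difference from the control is described below without a test. The rule uses no value of the other members, but they were listed with results of these data known. Their tests, against the control and between the knockdowns, are therefore not independent evidence.

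RNA was sequenced from A549, an established line of human lung adenocarcinoma grown in RPMI medium with 10% serum. All 9 libraries came from cells that stably expressed a short hairpin RNA and were kept under 1 µg/ml puromycin. In the control group the hairpin was directed at GFP, a protein absent from these cells, in the second at PRMT5 and in the third at MEP50, with 3 biological replicates in each group. PRMT5 methylates arginines of histones and of splicing proteins symmetrically, and MEP50, encoded by WDR77, is its partner in the methylosome complex. The labels name 1 hairpin group per target, so loss of the target and effects of that hairpin or cell line cannot be told apart, and as these are bulk samples, fewer cells expressing a gene and less RNA per cell cannot be told apart either.

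In textbook outline, ACLY cleaves citrate in the cytosol into acetyl-CoA and oxaloacetate, and ACACA carboxylates acetyl-CoA to malonyl-CoA. FASN then extends the chain on its own carrier domain until its built-in thioesterase releases palmitate. OLAH is a separate thioesterase that can release shorter chains from FASN, and is best known from the lactating mammary gland. SCD places the first double bond in saturated chains, FADS2 and FADS1 desaturate polyunsaturated chains, and the ELOVL enzymes carry out the first step of each round of elongation. Many of these genes are known targets of the SREBP transcription factors, which INSIG1 and sterols hold back in the endoplasmic reticulum.

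The libraries held between 20806181 and 31586128 reads on genes, and the filter on low counts left 14582 genes for testing. PRMT5 was at 208.5 ± 3.17 CPM (TMM-scaled; SD, n = 3) in the control and at 33.1% of this in its own knockdown, and WDR77 at 39.4 ± 0.225 CPM and 31.8%, so both hairpin labels match their target. Reads that the counting assigned to no feature made up 11.9 to 12.4% in the control, 13.7 to 14.5% under PRMT5 knockdown and 12.3 to 13.8% under MEP50 knockdown. These are shares of the reads on genes, without a feature or ambiguous. Where in the genome the reads without a feature lie was not examined. Of the 6 epithelial markers, KRT8 and KRT18 were abundant, whereas EPCAM had 13, 19 and 16 reads per group and KRT19 had 2, 0 and 0. The summed level of these 6 markers was 6345 to 6575 CPM in the control, 4154 to 4313 under PRMT5 knockdown and 3870 to 4147 under MEP50 knockdown. KRT8 and KRT18 carry this sum, and the markers did not move together, as CDH1 was at 40.1, 34.9 and 75.6 CPM and KRT7 at 2.52, 3.24 and 4.19 CPM in the 3 groups. Markers of blood cells summed to at most 0.2 CPM and those of endothelium to at most 0.27 CPM in any library. The 5 fibroblast markers summed to 11 to 13.2, 10.5 to 11.5 and 25.9 to 27.7 CPM in the same order of groups. Among them LUM was at 5.17, 0.629 and 7.90 CPM and COL1A1 at 6.88, 10.4 and 18.8 CPM. The part of these marker differences in the results was not tested.

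Levels can be compared between genes only per length, so CPM was divided by the exon length of each gene. SCD led in the control with 205.4 CPM per kilobase of exon, followed by ACLY with 195.3 and FASN with 125.3. FADS1 (66.6), ELOVL5 (49.1), FADS2 (34.2) and ELOVL1 (24.4) stood in the middle. ELOVL6 was at 7.06 and OLAH, the least abundant member, at 2.62 CPM per kilobase. In the control and under PRMT5 knockdown no neighbours in this order overlapped in their library values, and under MEP50 knockdown only FADS1 (51.7) and ELOVL5 (49.2) did. ACLY stood above SCD in both knockdowns, with 200.2 against 176.4 CPM per kilobase under PRMT5 knockdown and 233.1 against 202.4 under MEP50 knockdown.

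**Figure D1:**
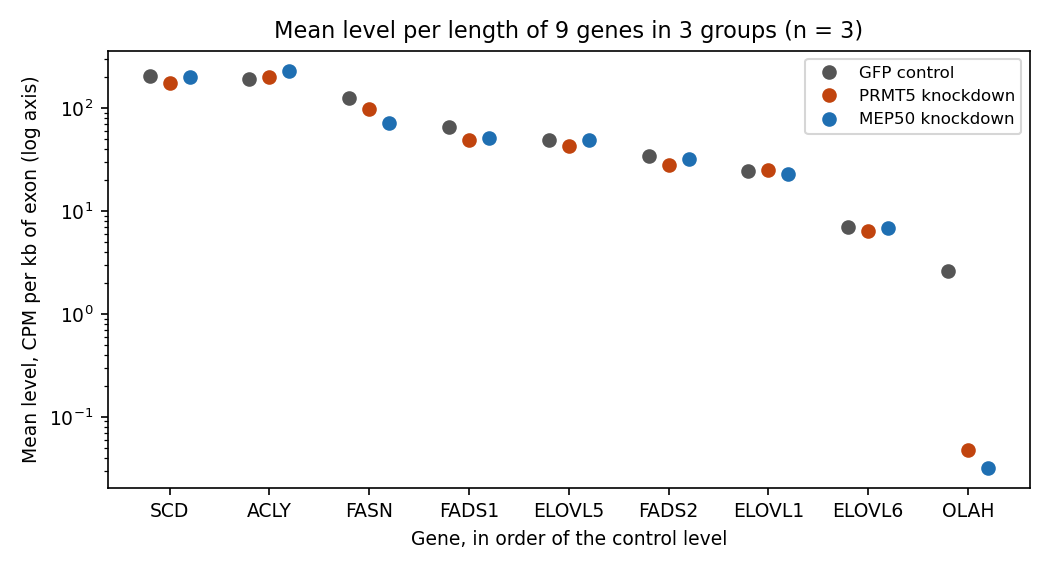
Mean level of the 9 matched genes in CPM per kilobase of exon on a log axis, for the 3 groups, in the order of the control. SCD and ACLY lie at the top in each group, ACLY leads in both knockdowns, and OLAH drops from 2.62 in the control to 0.047 and 0.0318.

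ACLY, which supplies the acetyl-CoA, was higher under MEP50 knockdown and did not pass the test under PRMT5 knockdown. Its level was 1014, 1019 and 1024 CPM in the control libraries, 1071, 1028 and 1035 under PRMT5 knockdown, and 1214, 1222 and 1213 under MEP50 knockdown. All 3 MEP50 knockdown libraries lay above all others, and the PRMT5 knockdown libraries lay just above the control. The log2 fold change was 0.26 ± 0.0245 (SE) under MEP50 knockdown, with an adjusted p of 1.05e-11 (quasi-likelihood test of edgeR, Benjamini-Hochberg over all 14582 genes). Under PRMT5 knockdown it was 0.04, with a 95% interval from -0.01 to 0.09 (edgeR adjusted p = 0.227).

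FASN, the synthase itself, fell in both knockdowns and fell further under MEP50 knockdown. The control libraries held 1165, 1169 and 1185 CPM of FASN, the PRMT5 knockdown libraries 921.1, 916.1 and 957.3, and the MEP50 knockdown libraries 694.5, 686.5 and 659.1. The 3 groups were fully apart, with group means of 1173 ± 10.7, 931.5 ± 22.5 and 680.0 ± 18.6 CPM (SD, n = 3). These means leave 79.4% of the control level under PRMT5 knockdown and 58.0% under MEP50 knockdown. The log2 fold changes of FASN were -0.33 ± 0.026 (edgeR adjusted p = 3.7e-14) and -0.79 ± 0.0262 (edgeR adjusted p = 4.23e-26). In the comparison of the knockdowns with each other, FASN was lower under MEP50 knockdown by a log2 fold change of -0.45 ± 0.0262 (edgeR adjusted p = 1.14e-17).

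The ratio of FASN to ACLY per length, chosen for display after the values were seen, sets both steps side by side within each library. It was 0.640, 0.639 and 0.645 in the control, 0.479, 0.496 and 0.516 under PRMT5 knockdown, and 0.319, 0.313 and 0.303 under MEP50 knockdown. The groups did not overlap in this ratio, and the MEP50 knockdown libraries had the lowest values. No test was made of it.

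OLAH, the chain-releasing thioesterase, was a low-abundance transcript in the control and was close to absent in both knockdowns. Its reads numbered 142, 194 and 175 in the control libraries, 2, 3 and 5 under PRMT5 knockdown, and 2, 2 and 1 under MEP50 knockdown. In scaled units these were 5.67, 6.54 and 6.34 CPM, then 0.0789, 0.0968 and 0.158 CPM, then 0.0967, 0.0935 and 0.0352 CPM. Every knockdown library lay far below every control library, and the knockdown libraries overlapped each other. The means were 6.18 ± 0.458, 0.111 ± 0.0414 and 0.0751 ± 0.0346 CPM (SD, n = 3), which is 1.80% and 1.22% of the control.

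The summed counts give the counting error of this fall, without the spread between libraries. The PRMT5 knockdown held 10 reads of OLAH against 511 in the control, a ratio of 0.0183 after scaling for depth, with a 95% counting interval of 0.00872 to 0.0339 (exact conditional binomial, counting error only). The MEP50 knockdown held 5 reads, a ratio of 0.0114 with an interval of 0.0037 to 0.0269. These ratios describe the values on which OLAH was chosen. Between the knockdowns, 5 against 10 reads gave a ratio of 0.625 with an interval of 0.168 to 2.01. OLAH passed the filter on low counts only through the control, so no test between the knockdowns is given. The interval holds ratios in both directions, so no order of the knockdowns is read from it.

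The authors' deposited tables list a log2 fold change of -3.82 by DESeq2 and -5.72 by edgeR for the PRMT5 knockdown, and -3.84 and -6.34 for the MEP50 knockdown. Refitting the counts gave -5.71 and -6.35 with edgeR and -5.78 and -6.44 with DESeq2, so only the DESeq2 values that the authors deposited stand apart, and the cause was not tested. For FASN the authors' deposited tables list -0.33 by both tools under PRMT5 knockdown and -0.78 by both under MEP50 knockdown.

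Markers of the cell types best known for OLAH or for lipid storage were low or at 0. CSN2, CSN3, CSN1S1 and LALBA, milk protein genes of the lactating mammary gland, had no read in any library, and with BTN1A1 the 5 mammary markers summed to at most 0.14 CPM. Of the 5 adipocyte markers, ADIPOQ, CIDEA and LPL were at 0 in all libraries and LEP had 1 read in all. The remaining one, PLIN1, a lipid droplet coat protein, had 165 reads in the control, 13 under PRMT5 knockdown and 12 under MEP50 knockdown. The 5 adipocyte markers together ranged over 1.82 to 2.32, 0.126 to 0.197 and 0.0967 to 0.211 CPM in the 3 groups, and their part in the fall of OLAH was not tested.

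**Figure D2:**
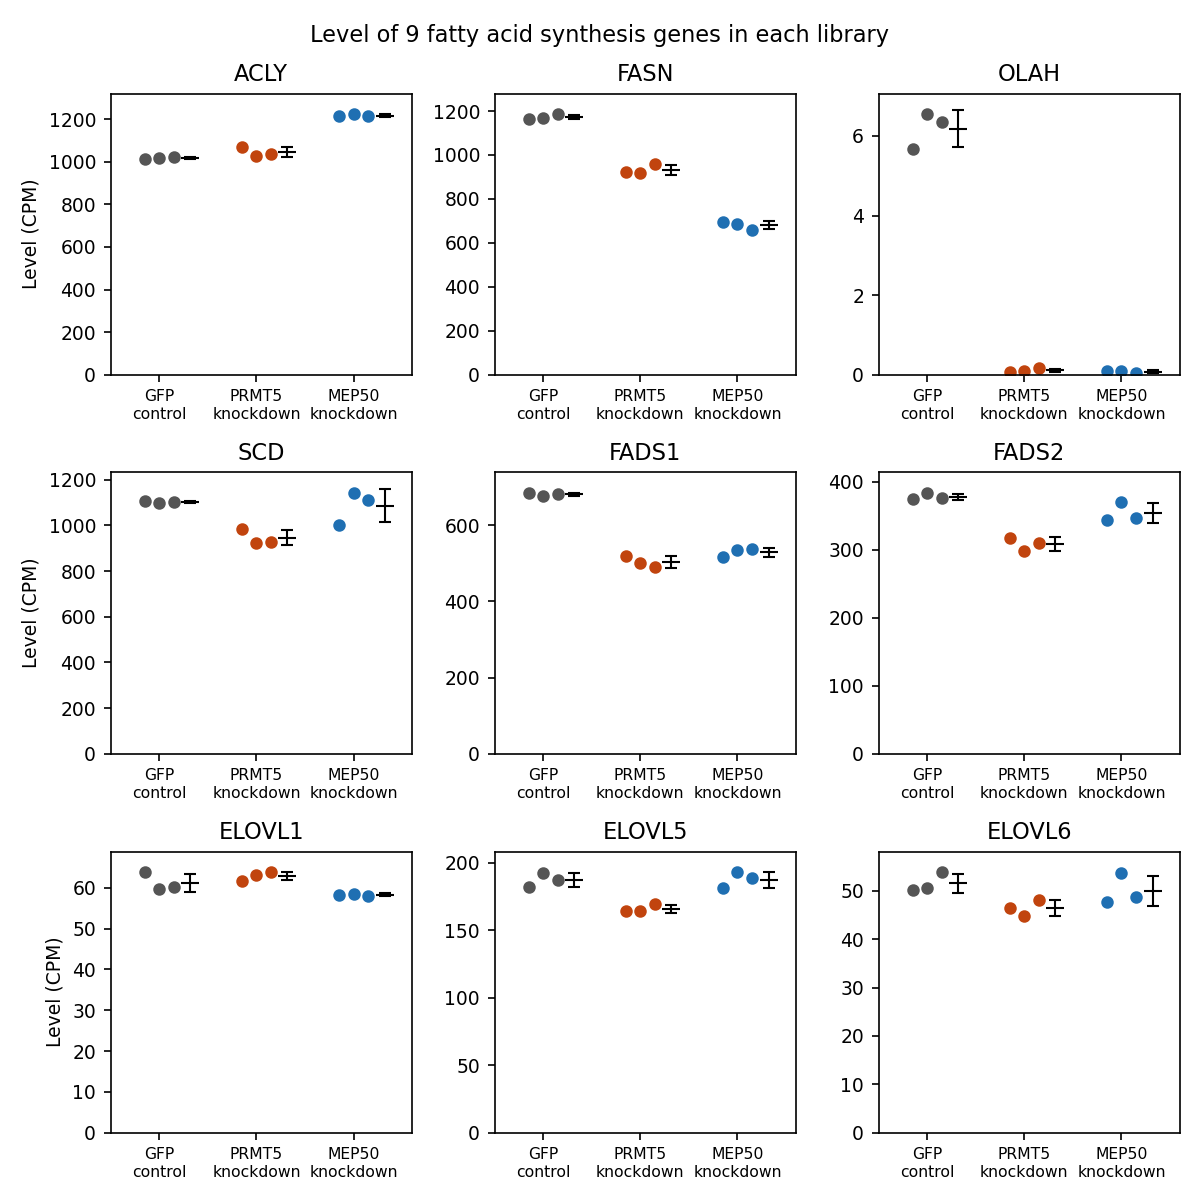
Level of each of the 9 matched genes in CPM, with 1 panel per gene and linear axes, where points are libraries and bars are the mean ± SD of 3 replicates per group. FASN steps down from 1173 to 931.5 and 680.0 CPM, OLAH is near 0 in all 6 knockdown libraries, and ACLY is highest under MEP50 knockdown.

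The genes whose pattern over the 9 libraries lay nearest to that of OLAH were NTS, which encodes neurotensin, CP, which encodes ceruloplasmin, KLRC2, ENSG00000234477 (no symbol in the name table) and KRT20, a keratin. Likeness was the Euclidean distance of log2 CPM, centred on the control, over 9 libraries. A prior count of 2, scaled to library size, was added before the log. It shrinks the fall of genes with few reads, OLAH among them, so the order is not that of plain CPM. The distances were 1.90 for NTS, 2.28 for CP, 2.51 for KLRC2, 3.06 for ENSG00000234477 and 3.32 for KRT20. For FASN the nearest genes lay at distances of 0.129 for KIAA1522, 0.172 for PLPBP, 0.173 for FNDC3B, 0.176 for LIG4 and 0.179 for PELO. OLAH is a rare transcript with more counting noise, so its distances are not set against those of FASN.

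All 3 desaturase genes of the set, SCD, FADS1 and FADS2, fell under PRMT5 knockdown. Of the desaturases outside the set, SCD5 fell there by 0.60 on the log2 scale (edgeR adjusted p = 6.13e-10), while FADS3 had a log2 fold change of -0.01 (edgeR adjusted p = 0.964). FADS1, the delta-5 desaturase, was at 683.8, 676.5 and 682.6 CPM in the control libraries, 519.6, 500.7 and 489.7 under PRMT5 knockdown, and 515.9, 534.9 and 537.2 under MEP50 knockdown. Every knockdown library lay below the control, and the knockdowns overlapped each other. The log2 fold change of FADS1 was -0.44 ± 0.0271 under PRMT5 knockdown (edgeR adjusted p = 3.5e-17) and -0.36 ± 0.0272 under MEP50 knockdown (edgeR adjusted p = 9.85e-15).

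FADS2, the delta-6 desaturase, held 374.1, 382.7 and 375.6 CPM in the control, 317.6, 297.8 and 309.6 under PRMT5 knockdown, and 343.2, 370.7 and 346.8 under MEP50 knockdown. The MEP50 knockdown libraries lay between both other groups. The log2 fold change of FADS2 was -0.29 ± 0.0304 under PRMT5 knockdown (edgeR adjusted p = 1.05e-10) and -0.09 ± 0.0305 under MEP50 knockdown (edgeR adjusted p = 0.00872). The latter call was lost when MEP50 knockdown replicate 1 was left out (log2 fold change -0.07, edgeR adjusted p = 0.0739).

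SCD, the delta-9 desaturase, held 1105, 1097 and 1102 CPM in the control, 984.5, 924.0 and 929.1 under PRMT5 knockdown, and 1003, 1140 and 1112 under MEP50 knockdown. The PRMT5 knockdown libraries lay below all others, and the MEP50 knockdown libraries spread over both sides of the control. The log2 fold change of SCD was -0.22 ± 0.0352 under PRMT5 knockdown (edgeR adjusted p = 1.66e-05). Under MEP50 knockdown it was -0.02, with a 95% interval from -0.09 to 0.05 (edgeR adjusted p = 0.643).

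FADS1 and FADS2 lie next to each other on chromosome 11 on opposite strands and share 490 exon bases in the annotation, and FADS2 shares a further 49 with FEN1 on the same strand. The strand setting of the counting is not given in the sources used here. Reads in the shared stretches could have been counted for either gene or set aside as ambiguous. The separate values of these genes are uncertain to that extent. ACLY also has an annotated antisense gene over 156 of its exon bases.

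The stretch just before the start of SCD, FADS1, FADS2 and ACLY is printed to set the 3 desaturase genes beside ACLY. All 3 desaturase genes were called lower under PRMT5 knockdown, but SCD was not under MEP50 knockdown. ACLY was called higher than the control only under MEP50 knockdown. No single comparison with the control thus holds both changes. The sequences are the 250 bases before the annotated start, from RefSeq on GRCh38.p14, and capitals mark matches on either strand to 4 motifs. The motifs were TCACNCNAC, which resembles the sterol response element bound by SREBP, the NF-Y motif CCAAT, the E-box CACGTG and the Sp1 motif GGGCGG. Windows were found for 8 of the 10 genes, and FASN and OLAH were not matched.
SCD, chr10:100346983-100347232, plus strand: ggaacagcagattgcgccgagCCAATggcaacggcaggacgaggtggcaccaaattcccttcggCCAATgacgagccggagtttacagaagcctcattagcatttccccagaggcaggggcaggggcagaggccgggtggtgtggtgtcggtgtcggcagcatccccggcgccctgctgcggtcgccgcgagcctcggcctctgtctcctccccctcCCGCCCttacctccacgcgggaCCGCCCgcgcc
FADS1, chr11:61817004-61817253, minus strand: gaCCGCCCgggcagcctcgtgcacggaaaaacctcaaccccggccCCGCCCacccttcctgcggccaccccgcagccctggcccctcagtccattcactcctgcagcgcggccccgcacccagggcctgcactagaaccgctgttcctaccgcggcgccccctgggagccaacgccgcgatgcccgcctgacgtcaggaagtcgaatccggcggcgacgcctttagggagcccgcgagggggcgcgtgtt
FADS2, chr11:61815953-61816202, plus strand: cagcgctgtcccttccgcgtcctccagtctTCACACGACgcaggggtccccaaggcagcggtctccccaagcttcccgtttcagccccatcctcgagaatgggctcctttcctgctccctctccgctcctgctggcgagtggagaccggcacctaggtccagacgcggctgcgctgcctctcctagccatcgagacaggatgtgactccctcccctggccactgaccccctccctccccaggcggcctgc
ACLY, chr17:41919023-41919272, minus strand: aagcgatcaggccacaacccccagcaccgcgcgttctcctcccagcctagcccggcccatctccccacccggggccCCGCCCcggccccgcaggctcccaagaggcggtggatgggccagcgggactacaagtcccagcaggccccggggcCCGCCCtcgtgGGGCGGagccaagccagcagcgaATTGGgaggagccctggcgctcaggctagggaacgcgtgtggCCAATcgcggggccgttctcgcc

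SCD held 2 NF-Y and 2 Sp1 matches, FADS1 held 2 Sp1 matches, and ACLY held 2 NF-Y and 3 Sp1 matches, none of which overlapped. FADS2 held 1 match to the sterol response motif, 220 bases before its start. FADS2 and ACLY each have a second annotated start whose window is not printed, and that of FADS2 held 0 sterol response and 1 Sp1 match, and that of ACLY 2 NF-Y and 4 Sp1 matches. Among all 35116 windows of this length, the sterol response motif was found in 2.02%, the NF-Y motif in 32%, the E-box in 6.34% and the Sp1 motif in 42.6%. Other SREBP sites differ from these letters, and a match or its lack describes only this stretch of letters. In this annotation the start sites of FADS1 and FADS2 lie 800 bases apart, or 599 for the second start of FADS2.

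The log2 fold changes of the 3 elongase genes against the control were smaller in size than those of FADS1. ELOVL5, which lengthens polyunsaturated chains, held 182.2, 192.0 and 187.3 CPM in the control, 164.1, 164.0 and 169.4 under PRMT5 knockdown, and 181.0, 192.8 and 188.5 under MEP50 knockdown. Only the PRMT5 knockdown stood apart, with a log2 fold change of -0.17 ± 0.0325 (edgeR adjusted p = 1.91e-05). Under MEP50 knockdown the log2 fold change of ELOVL5 was 0.00, with a 95% interval from -0.06 to 0.07 (edgeR adjusted p = 0.965).

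ELOVL6, which lengthens palmitate to stearate, held 50.2, 50.5 and 53.8 CPM in the control, 46.4, 44.8 and 48.2 under PRMT5 knockdown, and 47.6, 53.6 and 48.8 under MEP50 knockdown. The PRMT5 knockdown libraries lay just below the control. The log2 fold change there was -0.15 ± 0.0535 (edgeR adjusted p = 0.0182). That call did not hold without GFP control replicate 3 (-0.13, edgeR adjusted p = 0.09) and without PRMT5 knockdown replicate 2 (-0.13, edgeR adjusted p = 0.0842). Under MEP50 knockdown the 95% interval of ELOVL6 ran from -0.15 to 0.06 (edgeR adjusted p = 0.518).

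ELOVL1, which lengthens saturated very long chains, held 63.8, 59.6 and 60.2 CPM in the control, 61.7, 63.0 and 63.8 under PRMT5 knockdown, and 58.3, 58.6 and 58.0 under MEP50 knockdown. Its 3 groups lay within a few CPM of each other. The 95% interval of the log2 fold change of ELOVL1 was -0.05 to 0.13 under PRMT5 knockdown (edgeR adjusted p = 0.498) and -0.16 to 0.03 under MEP50 knockdown (edgeR adjusted p = 0.223).

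Leaving out OLAH, 8 members were tested against the control. Under PRMT5 knockdown 6 of the 8 were lower (FASN, SCD, FADS1, FADS2, ELOVL5 and ELOVL6), 0 were higher, and ACLY and ELOVL1 did not pass. At the same threshold 51% of all 14582 genes were called there, 26.1% higher and 24.9% lower. The median log2 fold change of the 8 members was -0.20, beside 0.00 over all genes. Under MEP50 knockdown 3 of the 8 were lower (FASN, FADS1 and FADS2), 1 was higher (ACLY) and 4 did not pass, while 51.7% of all genes were called, 26.5% higher and 25.2% lower. The median of the members was -0.06 there, beside 0.00 over all genes. As OLAH was chosen on these comparisons and both share the control libraries, nothing is read from these shares.

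**Figure D3:**
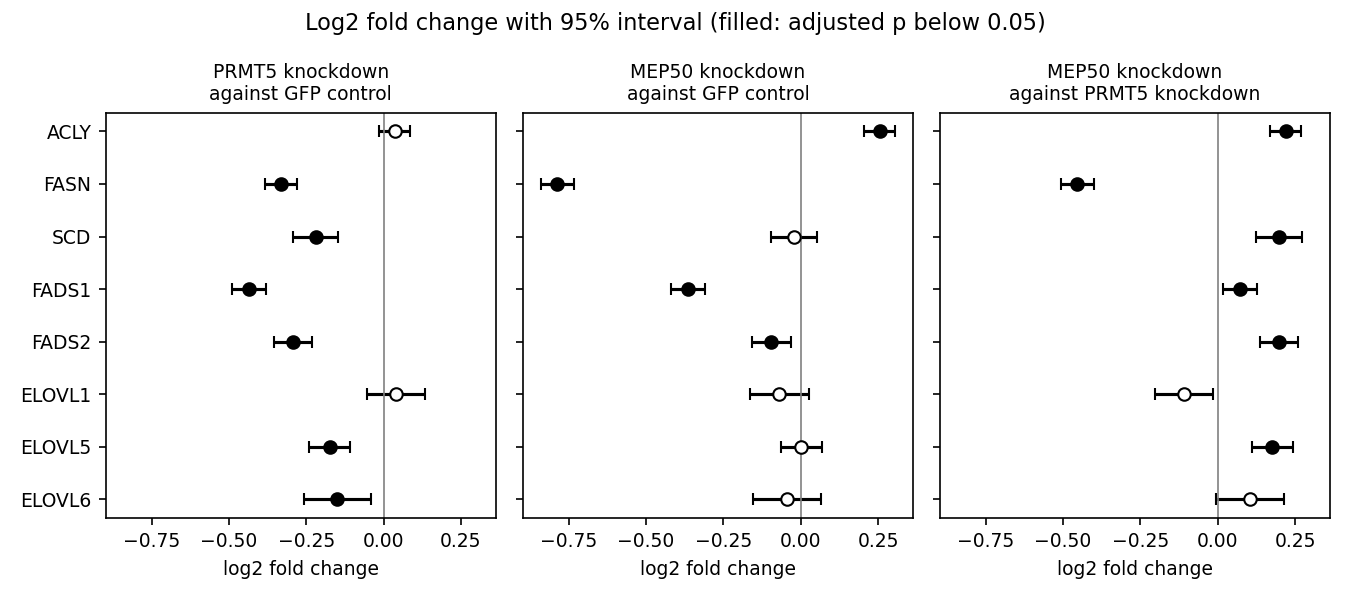
Log2 fold change of 8 members, without OLAH, in the 3 comparisons, where bars are 95% intervals and filled points have an edgeR adjusted p below 0.05. FASN lies at -0.33, -0.79 and -0.45, and ACLY, SCD, ELOVL5 and FADS2 lie near 0.2 in the comparison of the knockdowns.

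Set against each other, the knockdowns differed in 6 of the 8 members other than OLAH, of which 5 were higher under MEP50 knockdown and 1, FASN, was lower. Over all genes 39.7% were called in this comparison, 20.5% higher and 19.2% lower. The log2 fold change of the MEP50 over the PRMT5 knockdown was 0.22 for ACLY (edgeR adjusted p = 1.19e-09), 0.20 for SCD (edgeR adjusted p = 9.12e-05), 0.18 for ELOVL5 (edgeR adjusted p = 2.88e-05) and 0.20 for FADS2 (edgeR adjusted p = 1.37e-06). In all 4 the libraries of both knockdowns did not overlap, whereas for FADS1 they did. The share of all genes without such overlap was not computed, so nothing is read from this separation. FADS1 passed with 0.07 ± 0.0273 (edgeR adjusted p = 0.03), and this call was lost without PRMT5 knockdown replicate 2 (adjusted p = 0.0907) or replicate 3 (0.101), and without MEP50 knockdown replicate 2 (0.055) or replicate 3 (0.129), all by edgeR. ELOVL1 (-0.11, 95% interval -0.20 to -0.02, edgeR adjusted p = 0.0593) and ELOVL6 (0.10, 95% interval -0.01 to 0.21, edgeR adjusted p = 0.128) did not pass. ELOVL6 passed without MEP50 knockdown replicate 1 (0.15, edgeR adjusted p = 0.0434).

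A further pair of ratios within libraries was chosen after the values were seen, and other pairs of members need not follow them. SCD to FASN per length was 1.66, 1.64 and 1.63 in the control, 1.87, 1.76 and 1.70 under PRMT5 knockdown, and 2.52, 2.90 and 2.95 under MEP50 knockdown. FADS1 to FADS2 per length was 1.97, 1.91 and 1.96 in the control, 1.76, 1.81 and 1.71 under PRMT5 knockdown, and 1.62, 1.56 and 1.67 under MEP50 knockdown. The groups did not overlap in these ratios, and neither was tested. The summed level of the 9 members was 4643 to 4677 CPM in the control, 3939 to 4086 under PRMT5 knockdown and 4058 to 4259 under MEP50 knockdown.

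Further genes of fatty acid metabolism were followed in lists drawn up by role. Of all tested genes 26.1% were called higher and 24.9% lower under PRMT5 knockdown, and 26.5% and 25.2% under MEP50 knockdown, which is the background for each count below. Among 17 tested regulators of lipid synthesis, 3 were higher and 10 lower under PRMT5 knockdown (median log2 fold change -0.28), and 4 higher and 7 lower under MEP50 knockdown (median -0.01). SREBF1, which encodes SREBP-1, was at 184.6 ± 2.75 CPM in the control, 210.9 ± 4.84 under PRMT5 knockdown and 227.1 ± 12.3 under MEP50 knockdown. It rose with log2 fold changes of 0.19 (edgeR adjusted p = 6.3e-06) and 0.30 (edgeR adjusted p = 7.99e-10). SREBF2, which encodes the main activator of sterol genes, fell from 178.5 ± 1.76 to 128.5 ± 1.16 and 152.5 ± 3.44 CPM (edgeR adjusted p = 7.16e-16 and 1.51e-07).

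INSIG1, itself a target of the SREBPs, fell from 137.2 ± 5.67 CPM to 96.9 ± 7.28 under PRMT5 knockdown and 57.3 ± 4.50 under MEP50 knockdown. Its log2 fold changes were -0.50 (edgeR adjusted p = 5.19e-10) and -1.26 (edgeR adjusted p = 1.11e-18), and the MEP50 knockdown lay below the PRMT5 knockdown by -0.76 (edgeR adjusted p = 1e-12). INSIG1 and FASN had the same order over the 3 groups. MLXIPL, which encodes the carbohydrate response factor ChREBP, fell under PRMT5 knockdown (-1.02, edgeR adjusted p = 0.000119), and under MEP50 knockdown its log2 fold change was -0.39 (edgeR adjusted p = 0.117). PPARG, a nuclear receptor of lipid storage, fell in both (-0.49 and -0.42, edgeR adjusted p = 3.02e-12 and 2.09e-10).

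Of 13 genes that supply carbon and reducing power, 2 were higher and 7 lower under PRMT5 knockdown (median -0.18), and 3 higher and 7 lower under MEP50 knockdown (median -0.12). ACSS2, which makes acetyl-CoA from acetate, fell from 42.0 ± 0.601 CPM to 17.7 ± 0.717 and 14.6 ± 0.656. Its log2 fold changes were -1.25 (edgeR adjusted p = 3.45e-19) and -1.52 (edgeR adjusted p = 3.21e-21). IDH1, a cytosolic source of NADPH, fell from 438.2 ± 4.38 to 214.0 ± 3.72 and 267.0 ± 9.89 CPM (edgeR adjusted p = 1.77e-28 and 6.03e-23). MDH1, the cytosolic malate dehydrogenase, fell by 0.31 and 0.50 on the log2 scale (edgeR adjusted p = 3.82e-10 and 5.76e-16). ACLY, the other route to cytosolic acetyl-CoA, lay above the control under MEP50 knockdown while ACSS2 lay below it.

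The remaining genes of acyl synthesis numbered 10 tested, with 2 higher and 4 lower under PRMT5 knockdown (median -0.16) and 3 higher and 3 lower under MEP50 knockdown (median 0.06). ACACB, the mitochondrial acetyl-CoA carboxylase, fell from 22.5 ± 1.07 to 16.1 ± 1.39 and 14.8 ± 0.696 CPM (edgeR adjusted p = 3.16e-06 and 8.08e-08). CBR4, a reductase subunit of mitochondrial fatty acid synthesis, rose by 0.44 and 0.52 on the log2 scale (edgeR adjusted p = 1.23e-06 and 5.38e-08). AACS, which activates acetoacetate for lipid synthesis, fell by 0.50 and 0.28 (log2, edgeR adjusted p = 7.87e-09 and 0.00021).

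Among the other genes of elongation and desaturation 12 of 15 were tested, of which 5 were higher and 5 lower under PRMT5 knockdown (median -0.04) and 3 higher and 6 lower under MEP50 knockdown (median -0.16). ELOVL2, which acts on longer polyunsaturated chains than ELOVL5, rose from 71.5 ± 0.834 CPM to 113.5 ± 1.73 and 141.6 ± 0.417, opposite in direction to FADS1 and FADS2. The edgeR adjusted p of ELOVL2 was 8.88e-19 and 2.24e-24. CYB5B, a cytochrome b5 of the outer mitochondrial membrane, fell from 476.5 ± 5.15 to 262.2 ± 11.3 and 252.8 ± 12.6 CPM (edgeR adjusted p = 1.43e-24 and 3.32e-25). HSD17B12, a reductase of the elongation cycle, fell by 0.40 and 0.63 on the log2 scale (edgeR adjusted p = 2.3e-13 and 5.14e-19).

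Among the tested thioesterases other than OLAH, the largest fall was that of ACOT4. Of 16 listed, 13 were tested, with 4 higher and 5 lower under PRMT5 knockdown (median -0.07) and 3 higher and 4 lower under MEP50 knockdown (median -0.14). ACOT4, a peroxisomal acyl-CoA thioesterase, fell from 2.10 ± 0.370 CPM to 0.953 ± 0.137 and 0.871 ± 0.277 (log2 fold changes -1.14 and -1.27, edgeR adjusted p = 0.000731 and 0.000365). ACOT7, a cytosolic acyl-CoA thioesterase, rose from 27.6 ± 1.63 to 42.5 ± 1.93 and 39.6 ± 2.41 CPM (edgeR adjusted p = 2.85e-11 and 4.17e-09). ACOT11 fell under PRMT5 knockdown (-0.69, edgeR adjusted p = 0.0451), and under MEP50 knockdown its log2 fold change was -0.27 (edgeR adjusted p = 0.453).

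**Figure D4:**
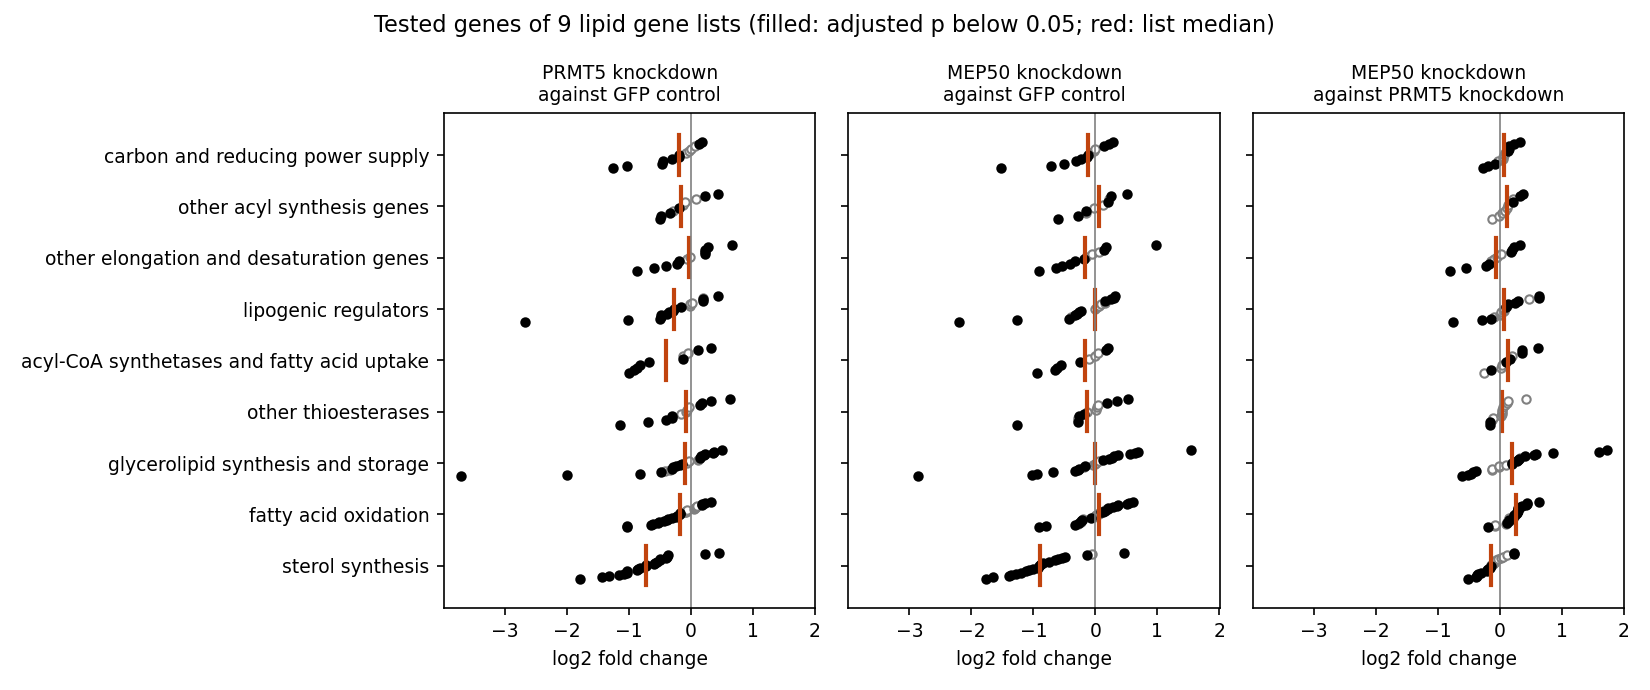
Log2 fold change of each tested gene of 9 lists of fatty acid and sterol metabolism in the 3 comparisons, where filled points have an edgeR adjusted p below 0.05 and red marks are list medians. The sterol list lies lowest against the control, with medians of -0.72 and -0.90, and the oxidation list lies highest between the knockdowns, with a median of 0.26.

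Genes that activate and take up fatty acids numbered 10 tested of 16, with 2 higher and 6 lower under PRMT5 knockdown (median -0.40) and 2 higher and 5 lower under MEP50 knockdown (median -0.17). ACSL1, a long-chain acyl-CoA synthetase, fell from 62.6 ± 2.59 to 31.4 ± 2.47 and 40.1 ± 1.39 CPM (edgeR adjusted p = 2.12e-18 and 1.15e-12). SLC27A2 and SLC27A3, of the fatty acid transport protein family, fell too. Their log2 fold changes were -0.91 and -0.55 for SLC27A2 (edgeR adjusted p = 3.45e-15 and 2.89e-09) and -0.68 and -0.94 for SLC27A3 (edgeR adjusted p = 0.000354 and 6.6e-06).

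Of 22 tested genes of glycerolipid synthesis and storage, 7 were higher and 9 lower under PRMT5 knockdown (median -0.10), and 9 higher and 8 lower under MEP50 knockdown (median 0.00). PLIN4, a lipid droplet coat protein, fell from 7.75 ± 2.02 CPM to 0.584 ± 0.119 and 1.09 ± 0.247 (edgeR adjusted p = 8.59e-17 and 4.28e-14). MGLL, the lipase of monoacylglycerols, separated the knockdowns, with 103.5 ± 0.762 CPM in the control, 25.9 ± 1.5 under PRMT5 knockdown and 85.9 ± 3.41 under MEP50 knockdown. Between the knockdowns its log2 fold change was 1.74 (edgeR adjusted p = 1.44e-27). CIDEC, a protein of lipid droplet fusion, was higher under MEP50 knockdown (1.55, edgeR adjusted p = 2.38e-06), and under PRMT5 knockdown its log2 fold change was -0.06 (edgeR adjusted p = 0.884).

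Fatty acid oxidation, the reverse route, was followed in 27 tested genes. Of these 4 were higher and 14 lower under PRMT5 knockdown (median -0.18), and 11 higher and 7 lower under MEP50 knockdown (median 0.06). Between the knockdowns 19 of the 27 were higher and 1 lower under MEP50 knockdown, with a median log2 fold change of 0.26, while 20.5% of all genes were called higher and 19.2% lower. ACADS, the short-chain acyl-CoA dehydrogenase, was at 16.4 ± 1.29 CPM in the control, 10.5 ± 0.926 under PRMT5 knockdown and 16.4 ± 1.52 under MEP50 knockdown (edgeR adjusted p between the knockdowns = 9.39e-07). PPARA, a nuclear receptor that activates oxidation genes, fell by 1.03 and 0.80 on the log2 scale (edgeR adjusted p = 1.19e-05 and 0.000438). ACOX2, a peroxisomal oxidase, fell by 1.03 and 0.91 (log2, edgeR adjusted p = 2.33e-07 and 3.26e-06).

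The sterol list holds classical SREBP targets, and its medians lay below those of the 8 members (-0.20 and -0.06). Of 22 tested genes 20 were lower and 2 higher under PRMT5 knockdown (median -0.72), and 20 lower and 1 higher under MEP50 knockdown (median -0.90). HMGCS1, an early enzyme of the pathway, fell from 1172 ± 10.9 to 433.1 ± 13.7 and 373.8 ± 12.6 CPM (edgeR adjusted p = 7e-34 and 1.07e-35). MVD, a decarboxylase of the mevalonate route, fell by 1.04 and 1.40 on the log2 scale (edgeR adjusted p = 8.14e-20 and 2.15e-23). No member of fatty acid synthesis other than OLAH fell below 58.0% of the control, in either knockdown.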

How the data were processed

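The authors deposited unnormalized read counts per Ensembl gene for 9 libraries. Per the submitters' processing notes these were made with Trim Galore, STAR and HTSeq on hg19. Their versions and the strand setting are not given in the sources used here. Libraries were stranded and depleted of rRNA, per the labels' protocols. The 2 comparison tables the authors deposited give, per the file headers, log2 fold changes and adjusted p-values (DESeq2) or FDR (edgeR). They list 6807 and 6832 genes.

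Here the 5 summary lines were left out. The gene-name table held 44822 of the identifiers. Lengths came from GENCODE on GRCh38, so length-scaled levels are approximate for hg19 counts. Counts were fitted with edgeR 4.0.16 in R 4.3.3 (TMM, filterByExpr, robust quasi-likelihood test, Benjamini-Hochberg at 0.05) in 1 fit of 9 libraries, with group as sole term. SE was taken from F, as the size of the log2 fold change divided by the root of F. The edgeR fit was also run on simulated counts, for the PRMT5 knockdown against the control only. Far fewer genes were changed there than were called in these data. The outcome is not reported here, and the other steps were not covered. The labels call the replicates biological but do not name separate cultures, so p-values measure only the spread between these samples, which may be technical.

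The members and lists were chosen with earlier results of these data known. The rule named all members, both targets, SREBF1, SREBF2, INSIG1, the 3 most changed called genes of each lipid list at 1 CPM or more, and the 5 nearest neighbours of OLAH and FASN. 1 gene that the rule named is not reported here. Markers were described from fixed lists, and SCD5, FADS3, CDH1, KRT7, LUM and COL1A1 were named after their values were seen. Alternatives were other scalings, DESeq2 1.42.0, other filters, fits of 6 libraries, a replicate block and leaving out each library.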

Additional observations from a re-analysis of the deposited data

How the results depend on the processing

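The log2 fold changes of the members were recomputed with other scalings, filters, DESeq2, fits of 6 libraries, the replicate block and leaving out each library in turn. Of these, 446 counted as unchanged. For a tested member, and for OLAH between the knockdowns, this means the same side of the threshold. OLAH passed the filter on low counts only through the control and has few reads in the knockdowns. Its unchanged entries between the knockdowns therefore carry no weight. For OLAH against the control it means the same direction and a shift smaller than the larger within-group SD of log2 CPM. In 9 a call was lost and in 3 one was gained. Direction was compared only for called members and for OLAH against the control, with 0 reversals. The direction of members without a call was not compared. Between the knockdowns FADS1 lost its call with library totals only (0.05, edgeR adjusted p = 0.131) and with no low-count filter (0.06, edgeR adjusted p = 0.129), and ELOVL1 gained one with upper-quartile scaling (-0.11, edgeR adjusted p = 0.0471) and with library totals (-0.13, edgeR adjusted p = 0.0228). The other changes came from leaving out 1 library and stand in the report. For OLAH the log2 fold change ranged from -6.05 to -5.56 in the PRMT5 knockdown and from -6.57 to -5.96 in the MEP50 knockdown. OLAH was not kept in the 6-library fit of both knockdowns, which gave no value. Same-numbered replicates did not deviate together (correlations -0.036 to 0.052, and -0.054 to 0.052 for other pairs between groups). This gives no sign that the numbers pair the samples, but it cannot exclude shared handling. With the replicate block 7423, 7549 and 5759 genes were called in the PRMT5 knockdown, the MEP50 knockdown and between them, and 6, 4 and 6 members. DESeq2 called 6862, 7063 and 5334 genes. The count of thioesterases called between the knockdowns was 2 (ACOT9 and PPT1, named after their values were seen), and 1 with DESeq2, with the block, with 6 libraries, and without any GFP control replicate, PRMT5 knockdown replicate 1 or 3, or MEP50 knockdown replicate 1 or 3. OLAH is limited by depth in the knockdowns, where 1 to 5 reads were counted per library.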
